A study of Mus musculus with 6 samples.

Results

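The Rab GTPase genes were examined in Th17 cells that carried either WT RORγt or RORγt N275D, with Rab4a set against its paralogue and against the other Rabs of the recycling route. A gene was taken as a Rab gene where its symbol in the deposited table was Rab followed by a number and by no more than a letter and a further digit, which left out the proteins that bind or regulate Rabs. The rule found 58 genes among the 16244 of the table. Of these, 48 had a mean of at least 10 normalized reads over the 6 libraries and were tested among 11908 genes, and 10 were below that mean and were not tested.

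RNA-seq was available for 3 WT and 3 RORγt N275D libraries. RORγt is the transcription factor that defines Th17 cells, and N275D is an amino acid substitution carried by knockin mice. In both groups naive CD4+ T cells of C57BL/6 mice, 6 to 12 weeks old and of both sexes, were taken from spleen by negative selection, stimulated with anti-CD3 and anti-CD28, and cultured for 3 days under pathogenic Th17 conditions. All 6 libraries therefore share the stimulation and the polarization. For the polarization the methods name TGF-β, IL-6, IL-23 and IL-1β with anti-IL-4 and anti-IFN-γ, while the series' own description names IL-6, IL-1β and IL-23. Both genotypes are described as C57BL/6, but the WT mice were bought as C57BL/6NJ and the knockin mice came from another institution. A littermate relation in these libraries is not given in the sources used here, so substrain and colony cannot be told apart from genotype. Whether the knockin cells of these libraries were homozygous or heterozygous, and whether the 3 libraries of a genotype came from separate mice or cultures, is not given in the sources used here, so p-values measure the spread between these libraries, which may be technical.

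Rab proteins are small GTPases that mark membranes and direct vesicle traffic between them. In the GTP-bound form they sit on a membrane and recruit effectors, exchange factors load them with GTP, GTPase-activating proteins return them to the GDP-bound form, and a lipid tail added to the C terminus holds them on the membrane. Rab5 proteins act on early endosomes, Rab4 and Rab11 proteins on the fast and slow routes that return receptors from endosomes to the cell surface, Rab7 on late endosomes and lysosomes, and Rab27 on the docking of secretory lysosomes. In T cells these routes carry the T cell receptor, integrins and cytotoxic granules.

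Between 17659035 and 18510878 reads per library lay on genes, and 1 read was worth 0.982 to 1.01 normalized reads, so normalized reads can be read nearly as read counts. WT replicate 3 stood apart from the other WT libraries, with a median chi-square of 2.96 and 3.05 times counting noise against 1.32 to 1.54 for the other pairs. All 7 T cell and Th17 markers were in the table, and their summed level was 73274 to 77254 normalized reads in WT and 85075 to 85816 in N275D, with 4 called higher (Il17a, Il17f, Il23r and Ccr6) and the other 3, Cd3e and Cd4 among them, called lower. The summed level of 5 B cell markers was 142 to 148 in WT and 208 to 284 in N275D, that of 4 CD8 T and NK markers 182 to 195 and 251 to 281, that of 5 myeloid markers 81.8 to 92.8 and 82.0 to 106, and Sox13, the gamma delta T marker in the table, had 18.2 to 31.4 and 35.1 to 38.5. The myeloid sum hides members that went opposite ways: Adgre1 fell from 22.6 ± 3.22 to 6.64 ± 3.05 normalized reads (SD, n = 3, log2 fold change -1.70, limma adjusted p = 0.000512), while Cd68 was at 50.6 ± 6.39 and 63.5 ± 9.79 and did not pass the test (limma adjusted p = 0.109). Of the CD8 T and NK markers Cd8b1 and Eomes were called higher and Cd8a was not called. The part of these other cells in the Rab values was not tested, and in bulk RNA fewer cells of a type cannot be told apart from less RNA per cell.

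Rab4a was the Rab gene with the largest difference between the genotypes and the 1 Rab gene called at 2-fold. It encodes a Rab of the rapid recycling route from early endosomes and lies on chr8:123805846-123835291 (plus strand, GRCm38). The WT libraries had 13.1, 12.1 and 11.8 normalized reads of Rab4a, and the N275D libraries had 121, 119 and 113. Every N275D library lay far above every WT library, and the spread within each genotype was small against the gap. The means were 12.3 ± 0.697 and 118 ± 4.39 (SD, n = 3), a 9.53-fold difference of means. On the log2(normalized reads + 1) scale Rab4a was higher in N275D by 3.15 (SE 0.16, limma adjusted p = 2.35e-10), which ranked 7 among 11908 genes from the highest log2 fold change downward. In whole reads the WT value rests on 13, 12 and 12 reads and the N275D value on 121, 119 and 114. Without WT replicate 3 the log2 fold change was 3.12 (limma adjusted p = 1.02e-13).

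Rab4b, the close paralogue of Rab4a on the same recycling route, was also higher in N275D but by far less. It lies on chr7:27168433-27178883 (minus strand). The WT libraries had 548, 587 and 587 normalized reads and the N275D libraries 708, 741 and 616. The genotypes did not overlap, although the lowest N275D library was close to the WT libraries. Rab4b rose from 574 ± 22.6 to 688 ± 64.8 normalized reads (SD, n = 3), a log2 fold change of 0.26 (SE 0.07, limma adjusted p = 0.00475). The annotation places the coding gene Gm20388 on the strand of Rab4a and Gm21983 on that of Rab4b, overlapping each, and how reads shared with them were counted is not given in the sources used here.

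The nearest genes to Rab4a on chromosome 8 that the deposited table lists, 3 on each side, were measured beside it. Ccsap, which starts 4.7 kb after Rab4a ends and encodes a spindle-associated protein, had 247 ± 6.1 normalized reads in WT and 254 ± 31.9 in N275D (log2 fold change 0.04, limma adjusted p = 0.756). Nup133, a nuclear pore gene 61.8 kb after Rab4a, was lower in N275D, from 1495 ± 97.4 to 1279 ± 35.8 normalized reads (log2 fold change -0.22, limma adjusted p = 0.00195). Gas8, 269.2 kb before Rab4a, did not pass the test (-0.05, limma adjusted p = 0.526). The other 3 of these 6 genes, Dbndd1, Rhou and Acta1, were below the mean of 10 normalized reads. These genes were not tested, and their mean normalized reads in WT and N275D were 1.67 and 1.33, 2.65 and 5.65, and 0.991 and 3.32. Of the tested neighbours Gas8, Ccsap and Nup133 none was called higher, where 24.7% of all genes tested were.

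The other 10 recycling Rabs tested did not pass the test in either direction, and of the 12 tested recycling Rabs only Rab4a and Rab4b were called, where 50.9% of all genes tested were. Rab11a and Rab11b, which act at the recycling endosome, had log2 fold changes of 0.03 (limma adjusted p = 0.607) and -0.07 (limma adjusted p = 0.306). Rab11a was measured at 1003, 1025 and 988 normalized reads in WT and at 1078, 998 and 1010 in N275D, so its genotypes overlapped. Rab35, a Rab of fast endocytic recycling, had 1433, 1497 and 1472 against 1532, 1530 and 1457 normalized reads, again with overlap (log2 fold change 0.04, limma adjusted p = 0.503). The exocytic Rabs Rab8a, Rab8b and Rab10 had log2 fold changes of 0.07, 0.01 and 0.06, and Rab14 had -0.08. Rab22a, which acts in the recycling of cargo that enters without clathrin, had 1007, 992 and 974 normalized reads in WT and 1049, 1107 and 1022 in N275D. Its genotypes did not overlap, yet the log2 fold change of 0.10 did not pass the test (limma adjusted p = 0.117). Rab13 and Rab15 were scarce in both genotypes. Rab13 had 14.7 to 18.2 normalized reads in WT and 14.0 to 14.8 in N275D (log2 fold change -0.21, limma adjusted p = 0.525), and Rab15 had 11.1 to 14.7 and 7.99 to 16.8 (-0.05, limma adjusted p = 0.908). Rab17 and Rab25, the recycling Rabs of epithelia, had at most 5.02 normalized reads in any library and were not tested. Over the 12 tested recycling Rabs the median log2 fold change was 0.03, against -0.00 over all genes tested. Leaving out WT replicate 3 brought Rab8a (0.10, limma adjusted p = 0.0233) and Rab14 (-0.11, limma adjusted p = 0.0169) past the threshold, in opposite directions.

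**Figure D1:**
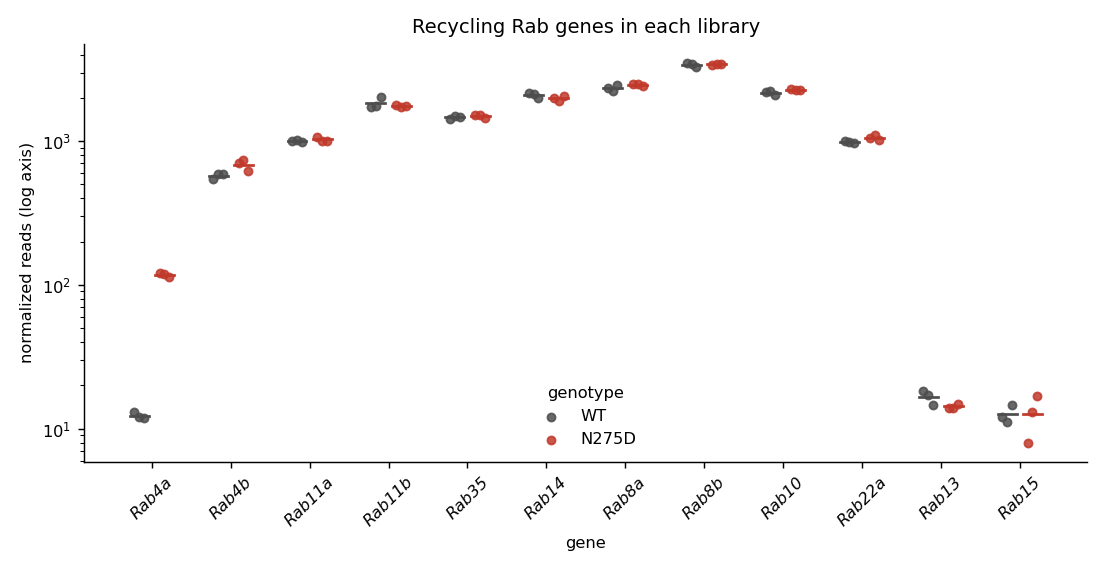
Normalized reads (log axis) of the 12 tested recycling Rab genes in each of the 6 libraries, with WT in grey and N275D in red; points are libraries and lines are means of 3. Rab4a moves from 12.3 to 118 normalized reads, while the other genes stay within 1.2-fold between the genotypes.

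The ratio of Rab4a to each other recycling Rab was then taken within each library, so that the scaling of a library cancels. In WT the log2 ratio of Rab4a to Rab4b was -5.43 ± 0.13 and in N275D -2.54 ± 0.09 (SD, n = 3), a difference of 2.90. Against Rab11a the difference was 3.12, against Rab11b 3.22, against Rab35 3.12 and against Rab14 3.23. The 11 differences lay between 2.90 and 3.36, and for each ratio every N275D library lay above every WT library. All 11 ratios share Rab4a, so they restate its difference beside each Rab and are not 11 separate comparisons. A two-sided exact permutation test gave p = 0.1 for each of the 11 ratios (Benjamini-Hochberg adjusted p = 0.1), which is the smallest p that 3 libraries against 3 can give, so this design cannot pass 0.05.

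Of the 48 Rab genes tested, 17 (35.4%) were called at a limma adjusted p under 0.05, against 50.9% of all genes tested. Higher in N275D were 14 (29.2%), against 24.7% of all genes, and lower were 3 (6.25%), against 26.1%. The remaining 31 were not called. At a difference of at least 2-fold 1 Rab gene (2.08%) was called, against 3.59% of all genes in either direction and 2.73% higher. The genotypes did not overlap in 19 Rab genes (39.6%), against 57.7% of all genes. These 19 include Rab1b, Rab10, Rab22a and Rab28, which did not pass the test, and leave out Rab18 and Rab24, which did. These shares are descriptions, and their difference from those of all genes was not tested. The median absolute log2 fold change was 0.12 over the 48 Rab genes and 0.19 over all genes, and 32 of the 48 (66.7%) differed by less than 0.2, against 53.0% of all genes. Summed over the 58 Rab genes, the WT libraries had 45008 to 45750 normalized reads and the N275D libraries 45859 to 46262. Without WT replicate 3, 18 Rab genes were called, 14 higher and 4 lower.

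**Figure D2:**
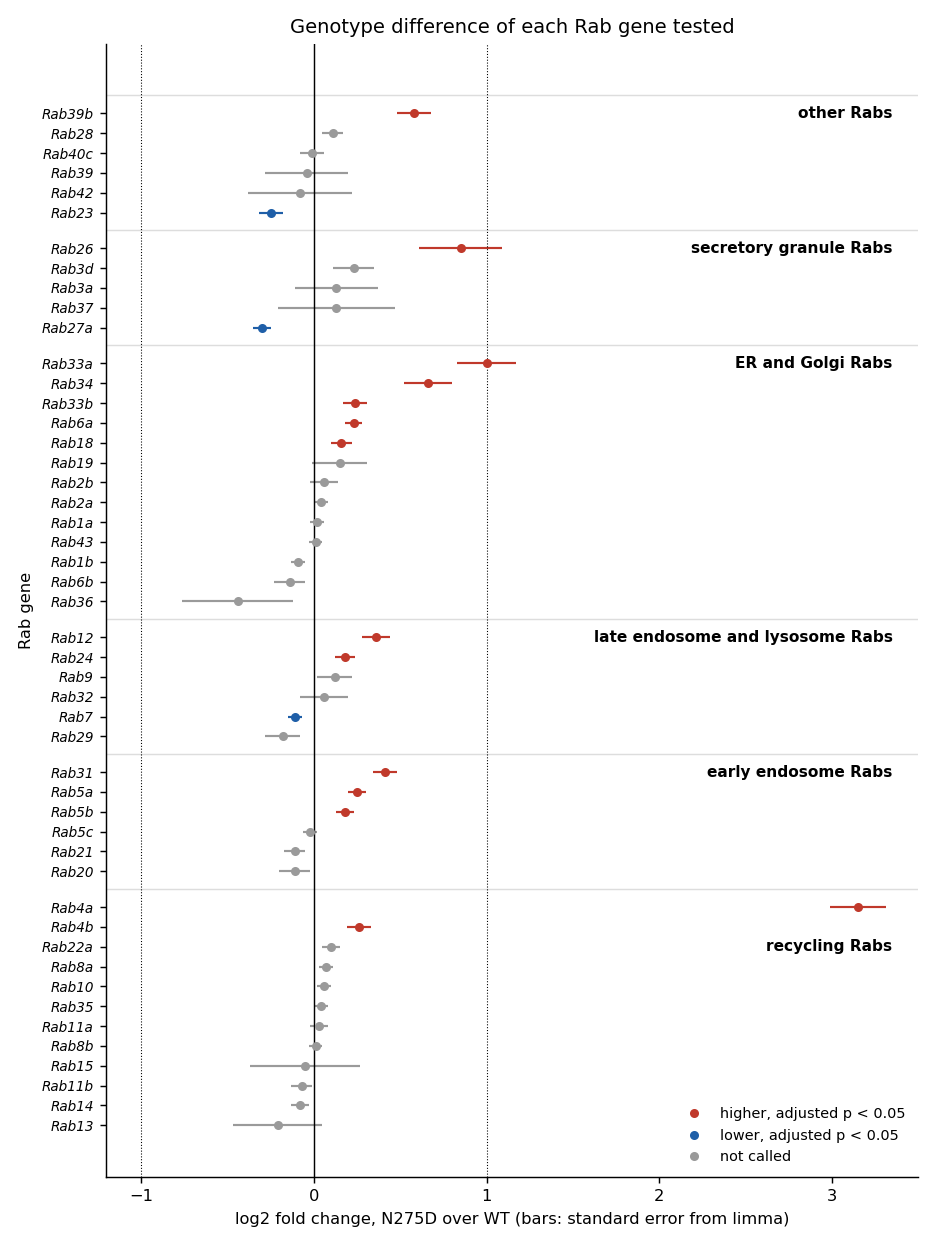
Log2 fold change (N275D over WT) of the 48 tested Rab genes by role, with the standard error from limma as bars; red is higher and blue lower at an adjusted p under 0.05, grey is not called, and dotted lines mark 2-fold. Rab4a at 3.15 stands alone to the right, Rab33a at 1.00 reaches the line, and Rab27a at -0.30 is the lowest call.

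Early endosome Rabs gave 3 calls among 6 tested, all higher, with a median log2 fold change of 0.08. That count lies near the share of all genes called in either direction, 50.9%, while 24.7% of all genes were called higher. Rab31, which carries cargo between the trans-Golgi network and endosomes, had 352, 323 and 340 normalized reads in WT and 433, 465 and 449 in N275D. The genotypes were well separated, and Rab31 rose by a log2 fold change of 0.41 (SE 0.07, limma adjusted p = 7.98e-05). Rab5a and Rab5b, which drive the fusion of early endosomes, rose by less. Rab5a had 1179, 1186 and 1107 against 1413, 1287 and 1434 normalized reads (log2 fold change 0.25, limma adjusted p = 0.000827), and Rab5b had 1319, 1404 and 1426 against 1570, 1581 and 1539 (0.18, limma adjusted p = 0.00404). In neither gene did the genotypes overlap. Pp2d1 overlaps Rab5a on the opposite strand, and whether the counting used strand is not given in the sources used here. The third paralogue, Rab5c, had the highest level per kb of the Rab5 genes and did not pass the test, at 2416 ± 106 and 2379 ± 21.4 normalized reads (SD, n = 3, log2 fold change -0.02, limma adjusted p = 0.694). Rab20 and Rab21 both had log2 fold changes of -0.11 and were not called.

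Promoter sequence was searched for a pair of motifs tied to the study's question, the ROR motif AGGTCA and the hypoxia response core ACGTG or GCGTG, on both strands of the 250 bases before each RefSeq start on GRCm38.p6. The ROR motif here is AGGTCA alone, searched without the flanking bases of a full ROR site. A CACGTG stretch is its own reverse complement and was counted once on each strand as overlapping matches. The hypoxia core stood in 38.6% of 32851 promoters of all genes and in 27 of 59 promoters (45.8%) of the 47 Rab genes with a promoter in that table, and the ROR motif in 14.0% and in 3 of 59 (5.1%). The counts by call that follow are per gene, with a match in any promoter of the gene, so they do not compare with the shares per promoter. Of the 14 Rab genes called higher, 11 had a promoter in the table, 6 of these held a hypoxia core and 1, Rab31, held a ROR motif. All 3 genes called lower held a hypoxia core, as did 15 of the 28 genes with a promoter that were not called, and Rab32 and Rab43 among those 28 held the ROR motif. Rab4a has no entry. A match is a description of letters and not a bound site. The 3 promoters below are printed in the direction of transcription from RefSeq, and capitals mark the motif matches: the called paralogue Rab4b with 2 cores, Rab5a with 6 core matches, and Rab31 with its ROR motif 233 bases before the start.
Rab4b, chr7:27178884-27179133, minus strand: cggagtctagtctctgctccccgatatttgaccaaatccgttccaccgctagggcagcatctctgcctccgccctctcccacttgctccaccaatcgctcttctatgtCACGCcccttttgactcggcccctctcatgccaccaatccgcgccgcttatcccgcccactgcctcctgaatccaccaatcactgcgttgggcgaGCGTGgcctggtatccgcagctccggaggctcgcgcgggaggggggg
Rab5a, chr17:53478984-53479233, plus strand: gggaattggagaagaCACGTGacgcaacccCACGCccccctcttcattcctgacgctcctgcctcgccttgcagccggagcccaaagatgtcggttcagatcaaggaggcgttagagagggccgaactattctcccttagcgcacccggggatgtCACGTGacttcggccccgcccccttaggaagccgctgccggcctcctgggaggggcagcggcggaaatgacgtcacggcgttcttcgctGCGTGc
Rab31, chr17:65772753-65773002, minus strand: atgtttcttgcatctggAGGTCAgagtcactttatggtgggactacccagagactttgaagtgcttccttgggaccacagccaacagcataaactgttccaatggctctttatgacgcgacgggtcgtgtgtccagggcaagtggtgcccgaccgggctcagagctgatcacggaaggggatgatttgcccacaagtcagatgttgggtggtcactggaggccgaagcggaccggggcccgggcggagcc

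Late endosome and lysosome Rabs went both ways, with 2 of 6 tested called higher and 1 lower (median log2 fold change 0.09), again near the 50.9% of all genes called. Rab12, which sends recycling cargo such as the transferrin receptor to lysosomes, had 233, 216 and 222 normalized reads in WT and 277, 311 and 276 in N275D, with no overlap (log2 fold change 0.36, SE 0.08, limma adjusted p = 0.00121). Rab24, a Rab of autophagy, rose from 843 ± 65.8 to 951 ± 55.0 normalized reads (SD, n = 3, log2 fold change 0.18, limma adjusted p = 0.0261), but its genotypes overlapped, and without WT replicate 1 the adjusted p was 0.0887, without WT replicate 2 0.108, without N275D replicate 1 0.0936, without N275D replicate 2 0.122 and without a trended prior 0.0998. Prelid1 overlaps Rab24 on the opposite strand. Rab7, which governs the step from late endosome to lysosome, was lower, with 5908, 5979 and 6412 normalized reads in WT and 5758, 5603 and 5556 in N275D. Its genotypes did not overlap and the difference was small, a log2 fold change of -0.11 (SE 0.04, limma adjusted p = 0.0232). That call was lost after quantile normalization (-0.02, limma adjusted p = 0.605), without a trended prior (limma adjusted p = 0.1), and without N275D replicate 2 (limma adjusted p = 0.0825) or N275D replicate 3 (limma adjusted p = 0.089). Rab9, Rab29 and Rab32 had log2 fold changes of 0.12, -0.18 and 0.06 and were not called.

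ER and Golgi Rabs gave 5 calls among 13 tested, all higher (median log2 fold change 0.06), where 24.7% of all genes were called higher and 50.9% in either direction. Rab33a, a Golgi Rab encoded on the X chromosome, had 23.2, 27.2 and 24.6 normalized reads in WT and 50.9, 54.2 and 47.4 in N275D. The genotypes were far apart, and the mean rose from 25.0 ± 2.05 to 50.8 ± 3.39 (SD, n = 3), a 2.03-fold difference of means. On the log2(normalized reads + 1) scale the log2 fold change was 1.00 (SE 0.17, limma adjusted p = 0.000177), which before rounding lay just under the 2-fold line. Rab34, a Golgi Rab that also places lysosomes, had 48.4, 50.4 and 58.0 against 73.9, 97.3 and 80.0 normalized reads (0.66, SE 0.14, limma adjusted p = 0.00116). Rab33b, the paralogue of Rab33a that also acts in autophagosome formation, rose from 226 ± 6.82 to 267 ± 6.55 normalized reads (0.24, limma adjusted p = 0.0117), with an adjusted p of 0.0608 from DESeq2 on the recovered reads and 0.0505 from limma after quantile normalization. Rab6a, which carries retrograde traffic to and through the Golgi, had 1448, 1494 and 1367 against 1673, 1693 and 1694 normalized reads (0.23, limma adjusted p = 0.000483), with Mrpl48 overlapping it on the opposite strand. In Rab34, Rab33b and Rab6a every N275D library was above every WT library. Rab18, a Rab of the ER and of lipid droplets, had 1212 to 1420 normalized reads in WT and 1382 to 1518 in N275D, which overlap (0.16, limma adjusted p = 0.0322). Rab18 missed the threshold without a trended prior, with all genes above a mean of 0 tested, and in 4 of the 6 fits that left a library out, at limma adjusted p = 0.0581 to 0.15. The Rabs of ER-to-Golgi transport, Rab1a, Rab1b, Rab2a and Rab2b, had log2 fold changes between -0.09 and 0.06 and were not called.

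Secretory granule Rabs split, with 1 of 5 called higher and 1 lower, against 24.7% and 26.1% of all genes. Rab27a, which docks cytotoxic granules and other secretory lysosomes at the plasma membrane, had 1043, 1145 and 1080 normalized reads in WT and 873, 872 and 901 in N275D. All N275D libraries were below all WT libraries, and the mean fell from 1089 ± 51.7 to 882 ± 16.5 (SD, n = 3, log2 fold change -0.30, SE 0.05, limma adjusted p = 0.000119). Rab26, a Rab of secretory granules, had 15.1, 21.2 and 28.5 normalized reads in WT and 31.9, 38.1 and 47.4 in N275D. The highest WT library came close to the lowest N275D library without reaching it, and the log2 fold change was 0.85 (SE 0.24, limma adjusted p = 0.00708). It was 1.07 without WT replicate 3 and 0.63 without WT replicate 1, and Traf7 overlaps Rab26 on the same strand. Rab3a, Rab3d and Rab37, which act in regulated secretion, had log2 fold changes of 0.13, 0.23 and 0.13 and were not called.

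Among the 6 other Rabs tested, Rab39b rose and Rab23 fell and the other 4 were not called, where 50.9% of all genes were. Rab39b, an X-linked Rab best known from neurons, had 106, 96.8 and 93.3 normalized reads in WT and 137, 152 and 154 in N275D, with no overlap (log2 fold change 0.58, SE 0.10, limma adjusted p = 0.000235). Rab23, which antagonizes Hedgehog signalling, had 332, 326 and 306 against 277, 264 and 268 normalized reads, again with no overlap (-0.25, SE 0.07, limma adjusted p = 0.00669). Rab28, Rab39, Rab40c and Rab42 had log2 fold changes between -0.08 and 0.11 and were not called. The 10 Rab genes below the mean of 10 normalized reads were Rab3b, Rab7b, Rab9b, Rab17, Rab25, Rab27b, Rab30, Rab38, Rab40b and Rab44. They had 0 to 11.1 normalized reads in a library, and with this filter a genotype difference in them was not tested.

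To compare levels between genes, normalized reads were divided by the length of each gene's coding-transcript exons, as normalized reads per kb. Rab7 had the highest level, 2337 ± 105 normalized reads per kb in WT and 2161 ± 40.5 in N275D (SD, n = 3). Rab5c, Rab1b, Rab1a and Rab2a followed in WT at 1101, 1075, 938 and 741 normalized reads per kb, and none of these 4 was called. Rab4b was at 482 ± 19.0 in WT (rank 13 of 58) and 578 ± 54.3 in N275D (rank 11). Rab4a was at 7.02 ± 0.397 in WT (rank 44) and 66.9 ± 2.50 in N275D (rank 31), so that it remained well under Rab4b in both genotypes. Rab33a was at 21.6 and 43.9 normalized reads per kb (ranks 39 and 36).

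**Figure D3:**
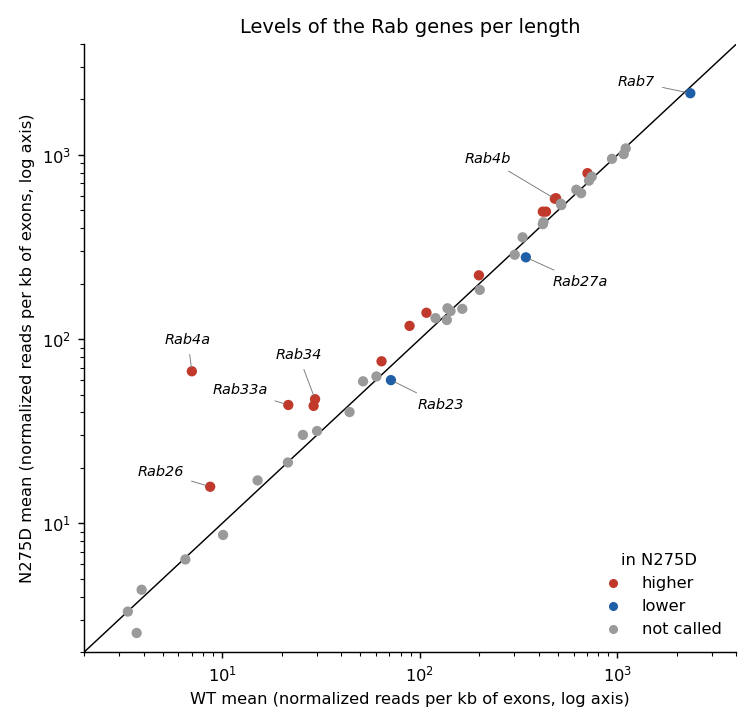
Mean level of the 48 tested Rab genes in WT (x axis) and N275D (y axis), in normalized reads per kb of exons on log axes; each point is a gene and the line marks equal levels. Rab4a lies farthest from the line, at 7.02 and 66.9, while Rab7 at the upper end lies just under it.

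The share of each paralogue group held by 1 member was taken on the same per-kb scale. Rab4a held 1.60%, 1.38% and 1.34% of the summed Rab4 level in the WT libraries and 10.4%, 9.85% and 11.0% in the N275D libraries. The mean share rose by 8.98 points, from 1.44% ± 0.138 to 10.4% ± 0.591 (SD, n = 3, two-sided exact permutation p = 0.1, the smallest possible), and Rab4b kept the larger share in all 6 libraries. Rab33a went from 25.2% ± 1.65 to 36.7% ± 1.45 of the Rab33 level and Rab39b from 81.7% ± 2.23 to 87.3% ± 1.57 of the Rab39 level (exact permutation p = 0.1 each). Within the Rab5 group the share of Rab5c went from 54.4% ± 1.45 to 50.2% ± 0.545, with Rab5a and Rab5b each taking a larger part (exact permutation p = 0.1 each). Rab6a went from 90.5% ± 0.649 to 92.4% ± 0.669 of the Rab6 level, also without overlap (exact permutation p = 0.1). Shares overlapped between the genotypes in the Rab1, Rab2, Rab3, Rab8, Rab11 and Rab27 groups. Rab11a held 58.3% ± 2.55 and 60.1% ± 0.62 of its group (exact permutation p = 0.6), and Rab8a 41.9% ± 1.79 and 42.8% ± 0.451 (exact permutation p = 0.4).

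**Figure D4:**
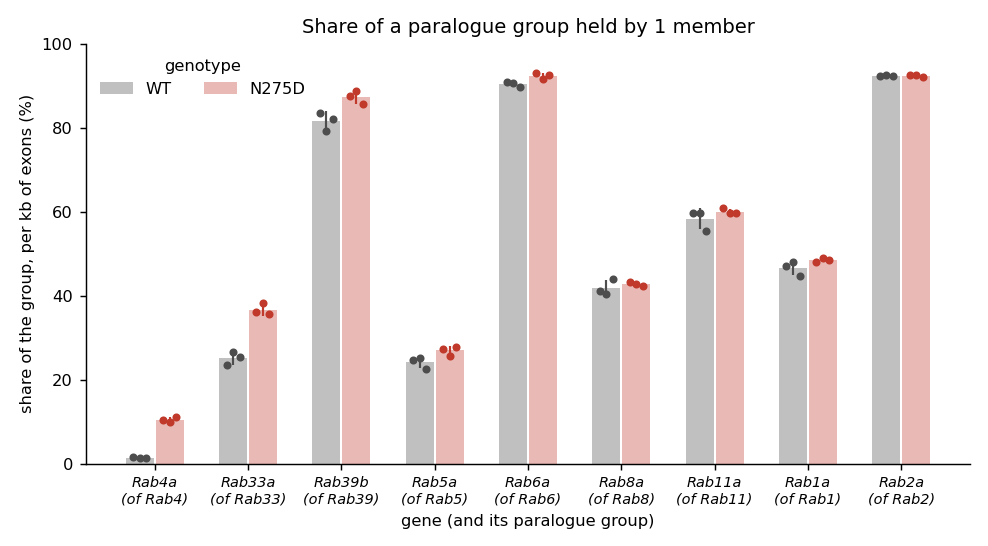
Share (%) of the summed per-kb level of a paralogue group held by the named member, with WT in grey and N275D in red; bars are means of 3 libraries, whiskers SD and points libraries, and the axis starts at 0. Rab4a goes from 1.44% to 10.4% and Rab33a from 25.2% to 36.7%, while Rab2a stays at 92.5% and 92.4%.

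Genes that load, release or bind Rabs, or act in recycling beside them, were counted from lists of the same pathway. The list of recycling effectors joins effectors of Rab4, Rab5 or Rab11 with the Ehd proteins and Snx4, which act in recycling. It gave 5 higher and 5 lower calls among 15 tested (median log2 fold change -0.02), against 24.7% higher and 26.1% lower of all genes. Ehd3, an ATPase that shapes recycling endosomes, had 1426, 1450 and 1562 normalized reads in WT and 678, 655 and 669 in N275D. The N275D libraries lay under every WT library by a wide margin (log2 fold change -1.15, SE 0.05, limma adjusted p = 3.34e-11). Rab11fip4, a Rab11 effector, fell from 3483 ± 166 to 2034 ± 23.8 normalized reads (-0.77, limma adjusted p = 4.48e-10), and Rufy1, a Rab4 effector, from 327 ± 14.4 to 248 ± 18.6 (-0.40, limma adjusted p = 0.000451). Rab11fip5, another Rab11 effector, rose from 40.0 ± 5.83 to 65.1 ± 12.9 (0.68, limma adjusted p = 0.00394).

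Of 8 genes of Rab lipidation and membrane cycling, 4 were higher and 1 lower (median log2 fold change 0.18), against 24.7% and 26.1% of all genes. Rabac1, which encodes the Rab acceptor PRA1, had 1083, 1014 and 1094 normalized reads in WT and 1578, 1483 and 1503 in N275D, with no overlap (0.52, limma adjusted p = 2.85e-07). Chm and Rabggta, an escort protein and a subunit of the enzyme that add the lipid, rose by 0.33 (limma adjusted p = 0.000525) and 0.32 (limma adjusted p = 0.000887). Chml, the other escort protein, fell by 0.24 on the log2 scale (limma adjusted p = 0.0413).

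Exchange factors gave 11 higher and 3 lower calls among 33 tested (median log2 fold change 0.09). Dennd3, the exchange factor of Rab12, had 212, 215 and 221 normalized reads in WT and 491, 513 and 511 in N275D, so that the genotypes were far apart (1.22, SE 0.07, limma adjusted p = 4.00e-10). Dennd2a was scarce and also past 2-fold, at 9.31 ± 3.71 and 20.6 ± 0.732 normalized reads (1.14, limma adjusted p = 0.00714). Dennd1a and Dennd1b, exchange factors of Rab35, each rose by 0.45 (limma adjusted p = 2.42e-05 and 4.08e-05), while Rab35 itself did not pass the test. GTPase-activating proteins gave 13 higher and 1 lower calls among 31, none at 2-fold (median log2 fold change 0.07). Evi5l, a TBC-domain protein, rose from 238 ± 21.3 to 374 ± 21.7 normalized reads (0.65, limma adjusted p = 5.43e-06), and Tbc1d1, which acts on Rabs of glucose transporter vesicles, from 1522 ± 58.7 to 2035 ± 50.8 (0.42, limma adjusted p = 1.16e-06). Tbc1d16, which acts on Rab4a, rose from 65.9 ± 13.3 to 101 ± 4.73 (0.63, limma adjusted p = 0.00179), and Tbc1d30 from 8.67 ± 1.23 to 17.0 ± 4.47 (0.87, limma adjusted p = 0.0252). In both regulator lists higher calls outnumbered lower calls, where over all genes 24.7% were higher and 26.1% lower. In either direction 50.9% of all genes were called. At 2-fold 2 exchange factors were called, where 3.59% of all genes were. These counts are descriptions and were not tested against the shares of all genes.

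**Figure D5:**
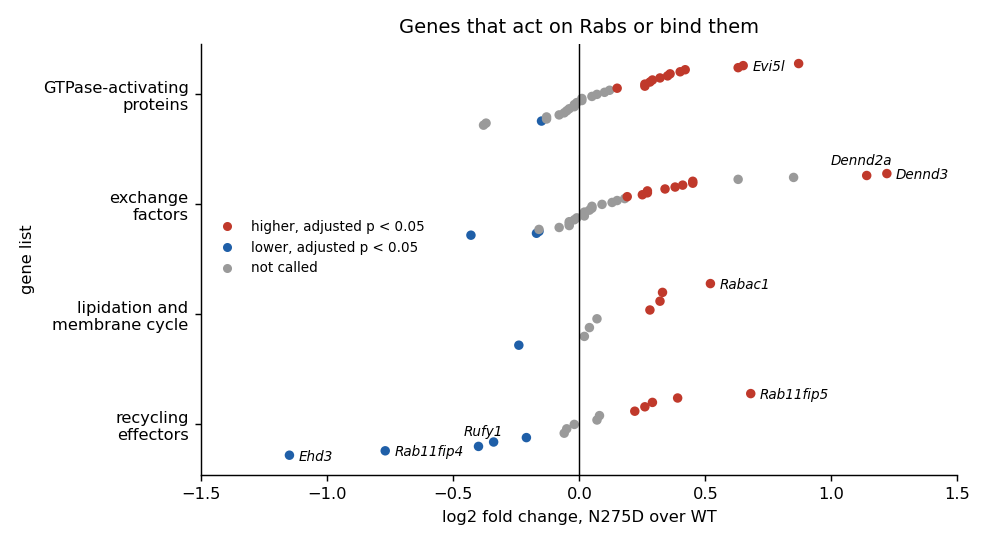
Log2 fold change (N275D over WT) of each tested gene in 4 lists of proteins that bind or regulate Rabs or act in recycling beside them; each point is a gene, red is higher and blue lower at a limma adjusted p under 0.05, and grey is not called. Recycling effectors spread from -1.15 (Ehd3) to 0.68 (Rab11fip5), while most calls of the other 3 lists lie to the right of 0.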

How the data were processed

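The 6 Th17 libraries (3 WT, 3 RORγt N275D) were analysed by RNA-seq, with genotype and replicate taken from the library names in the sample descriptions. Per the study's methods and processing notes, the authors used STAR for alignment of the trimmed reads (build mm10), featureCounts for counting and DESeq2 for the genotype comparison; tool versions and use of strand are not given in the sources used here. The labels name NEBNext Ultra II Directional libraries after poly-A selection and the methods DNBSEQ strand-specific libraries. The signal values that the authors deposited are normalized reads, that is reads per gene times 1 factor per library; 100% were whole multiples of that factor within 1e-06. The deposited table also holds the authors' log2 fold changes, q-values and group averages, none of which was used.

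Genes with a mean of at least 10 normalized reads were tested with limma (version 3.58.1, R 4.3.3, trended prior, log2(normalized reads + 1), no block). Calls had a Benjamini-Hochberg adjusted p under 0.05 over all genes tested, with or without at least 2-fold; a fold change on this scale understates that of scarce genes. The fit was run on simulated data as a check of the script only. Levels per kb used the exons of coding transcripts (GENCODE M21, GRCm38). Positions and promoters are from RefSeq GRCm38.p6. Single values and ratios used two-sided exact permutation tests over libraries. Genes named are the recycling Rabs, the 5 called increases and the called decreases that were largest, the 5 highest levels per kb in WT, up to 4 called members of each regulator list, and, named after their values were seen, the other called Rabs and Chml. Members and lists were chosen with earlier results of these data known. Protein features were not analysed here, and a gene that this rule names is not reported here. Alternatives were TMM and quantile scaling, pseudocounts of 0.1 and 10, filters at a mean above 0 or of 100, no trend, a replicate block, each library left out, and, on whole reads recovered from the values, DESeq2 (1.42.0) and edgeR's quasi-likelihood test (4.0.16).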

Additional observations from a re-analysis of the deposited data

How the results depend on the processing

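Rab4a kept its direction and its call in every alternative that could test it, with a log2 fold change from 2.51 (pseudocount 10) to 3.26 (DESeq2) and from 3.12 to 3.19 with a library left out; a filter at a mean of 100 removed it, so that 0 Rab genes were called at 2-fold there. That count was 2 with a pseudocount of 0.1, with edgeR and with DESeq2, where Rab33a reached 1.02, 1.03 and 1.03, and 1 to 2 with a library left out (Rab33a without WT replicate 2 or N275D replicate 3, Rab26 without WT replicate 3). Over all genes the count at 2-fold went from 427 to 259 (pseudocount 10), 703 (mean above 0) and 162 (mean of 100, fewer genes tested); quantile scaling split it into 232 higher and 146 lower, against 325 and 102, and the cause was not tested. Rab genes called were 13 to 18 over the alternatives, and 15 to 18 with a library left out. The ratio of Rab4a to Rab4b was 2.85 to 2.97 with a library left out and 2.26 to 2.98 otherwise, and all 11 ratios stayed separated in each of these fits. Deviations of same-numbered libraries correlated at -0.05, 0.04 and -0.08, so no shared shift in expression by number was seen. Whether same-numbered libraries were prepared together is not given in the sources used here. With the replicate block 5727 genes were called (6056 without), 17 Rab genes among them, and Rab4a was at 3.15. Scarce Rabs, at about 12 reads a library, limit what the depth can show. In the other named Rab genes 454 values kept their call, 17 lost it (Rab7, Rab18, Rab24 and Rab33b) and 4 gained it (Rab8a, Rab10 and Rab14).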
